A study of Homo sapiens with 8 samples.

Results

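The genes described here carry CEP symbols, given to proteins found at the centrosome and numbered mostly by apparent protein size, so the name marks a place in the cell and not a common sequence. The family was chosen with earlier results of these data known. Its members were then picked by symbol alone. Every probe set was taken whose single gene symbol on the array's annotation is CEP followed by a number and at most 1 further letter. The pattern found 34 genes, of 19775 genes named on the array, read by 103 probe sets. For each gene 1 probe set was then selected on a measured value, its mean level over all 8 arrays, the highest mean being taken. Levels therefore serve mainly as description. The levels of different probe sets are set against each other only as a rough guide, for a background level and between probe sets of the same gene. The soft and stiff groups played no part in that choice.

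The samples are cultures of MDA-MB-231, a triple-negative human mammary carcinoma line with mutant p53, kept for 2 days on a soft substrate (4 arrays, A to D) or on a stiff substrate (4 arrays, A to D) in DMEM/F12 medium with serum. The title of the study names mechanical cues, the mevalonate pathway and RhoA. It is 1 cell line, the stiffness of neither substrate is given in the sources used here, and no step beyond "biological" says how the cultures of a group were kept apart. Adjusted p-values therefore weigh each difference against the spread between these arrays, which may not be that between independent cultures.

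Between any pair of arrays the correlation was 0.993 to 0.998. Soft and stiff lay apart on the leading principal component (40.4% of the variance), and stiff A and B lay apart from stiff C and D on the next (16.4%). All 7 mesenchymal markers of this line lay between 12.4 and 14.6 on the log2 scale. Of 12 luminal breast markers, 9 had a mean above the background level of 6.30, which was set from genes taken as silent in breast cells, among them KRT18 at 13.1 and ESR1 at 6.41. The other 3, PGR at 3.62, FOXA1 at 4.19 and CDH1 at 4.26, were below it. Of 11 measured genes of multiciliated cells, 2 had a mean above background, as did 1 of 5 leukocyte genes and 1 of 5 endothelial genes. FOXJ1, which defines multiciliated cells, was at 5.87. Past the threshold among these markers were AXL, a mesenchymal marker, at a soft minus stiff difference of -0.23 on the log2 scale by limma (adjusted p = 0.0318), the luminal TFF1 and KRT19 at 1.12 (adjusted p = 0.000519) and 0.35 (adjusted p = 0.0106), and the endothelial PECAM1 at 0.49 (adjusted p = 0.00211). Their part in the results was not tested.

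The centrosome is the cell's main microtubule organising centre. It holds a pair of centrioles in a cloud of pericentriolar material, copies itself once per cell cycle, forms the spindle poles in mitosis and, in cells that stop dividing, gives rise to the primary cilium from its older centriole. Copying starts when CEP192 and CEP152 bring the kinase PLK4 to the wall of a parent centriole, where STIL and SASS6 then build the cartwheel of the new one. Other CEP proteins set centriole length, dock the older centriole at the membrane, tie the centrosomes together or, for CEP55, act at the midbody in the last step of cell division.

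On the soft substrate 7 of the 34 CEP genes (20.6%) were lower and 1 (2.94%) was higher by limma at an adjusted p under 0.05, and 26 were not past the threshold. Of all 19775 genes, 5.93% were lower and 4.39% higher. All 34 chosen probe sets had a mean above background, and among the 11114 genes with such a mean 9.72% were lower and 7.11% higher. The genes that fell were CEP43, CEP128, CEP152, CEP55, CEP131, CEP20 and CEP57, with changes of -25.9% to -13.8%, and the gene that rose was CEP350. In a culture measured as a whole, fewer cells holding a transcript and less transcript per cell cannot be told apart.

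Most members had small differences of one sign. The soft minus stiff difference was below 0 for 26 members (76.5%), above 0 for 7 and at 0 for CEP85, whereas 47.6% of all genes were below 0. The median difference of the members was -0.15 on the log2 scale, that of all genes 0.01 and that of genes above background -0.02. For 12 members every soft array lay below every stiff array, a pattern seen in 11.2% of all genes. For 3 members every soft array lay above every stiff array, which 8.78% of all genes did. These shares of arrays that did not overlap were not taken for genes above background alone, where all members lie.

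**Figure D1:**
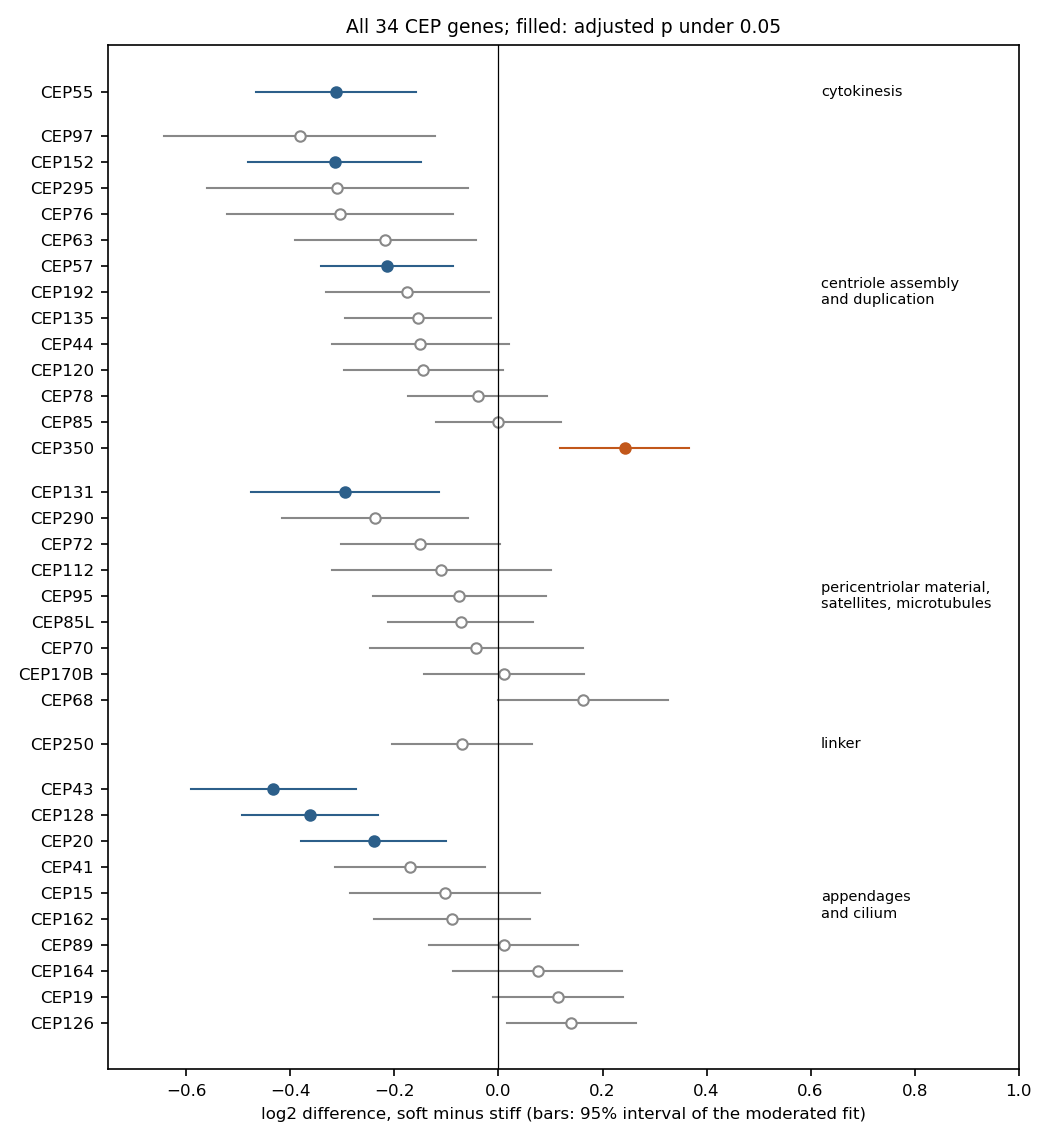
Log2 difference, soft minus stiff, of each of the 34 CEP genes (points) with the 95% interval of the moderated fit (bars), grouped by role. Filled points passed adjusted p under 0.05; 7 lie left of 0 and 1, CEP350, lies right of it, and 26 of the 34 points are below 0.

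Promoter sequences are shown for CEP55, CEP152 and CEP57 because they are the members lower on soft whose window held letters of both an E2F site and a cell cycle homology region, elements known from genes transcribed in S phase or in G2 and mitosis. The windows are RefSeq's on GRCh38.p14, from 250 bases before to 50 bases after each start. Matched by gene identifier, they covered 30 members in 38 windows. Each sequence is written 5′ to 3′ along its gene, with the E2F letters in capitals first and the cell cycle homology letters in capitals after them, each read on either strand. The CEP55 stretch is chr10:93496407-93496521 on the plus strand, that of CEP152 is chr15:48811223-48811292 on the minus strand, and that of CEP57 is chr11:95789914-95789972 on the plus strand.
CEP55: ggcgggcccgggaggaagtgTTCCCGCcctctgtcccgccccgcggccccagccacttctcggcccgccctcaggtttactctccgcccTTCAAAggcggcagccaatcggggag
CEP152: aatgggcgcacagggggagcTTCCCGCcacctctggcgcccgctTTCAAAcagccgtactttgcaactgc
CEP57: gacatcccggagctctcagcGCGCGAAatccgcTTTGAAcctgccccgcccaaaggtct

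The letters searched for E2F were TTNNCGC, in which only a C or a G could stand at each N. Those for the cell cycle homology region were TTTGAA or else TTCGAA, and the third kind was CCAAT. Both strands were searched, and a match was counted also where it overlapped a match of another kind. E2F letters stood in 42.1% of the 38 member windows, against 13.0% of all 35116 windows and 16.6% of the 19316 windows of measured coding genes. Cell cycle homology letters stood in 39.5% of member windows, against 16.4% of all windows and 13.2% of those of measured coding genes. CCAAT stood in 19 of the 38 member windows, against 34.6% of all windows and 34.4% of those of measured coding genes. Both E2F and cell cycle homology letters stood in 8 member windows (21.1%), against 1.38% of all windows and 1.64% of those of measured coding genes. Windows of a gene can overlap, and a site is then counted in each. The 2 windows of CEP76 overlap and hold the same E2F and cell cycle homology letters, and 2 CEP112 windows share an E2F match.

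The 7 genes with both kinds of letters were CEP112, CEP152, CEP192, CEP295, CEP55, CEP57 and CEP76, of which 3 were lower on soft. Of all 34 members 7 (20.6%) were lower, and of genes above background 9.72%. Whether the letters go with the fall was not tested. The windows of CEP131 and CEP20, also lower on soft, held CCAAT alone. Those of CEP128 and CEP43, lower on soft, and of CEP350, higher on soft, held none of the letters searched. The median GC content was 61.5% in member windows, 63.0% in windows of measured coding genes and 58.7% in all windows. These matches describe letters in a fixed window, and binding was not measured here.

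CEP55 is recruited to the midbody at the end of mitosis, where it brings in the ESCRT machinery that cuts the bridge between daughter cells. Its level was 11.64, 11.88, 11.89 and 11.85 on soft arrays A to D, against 12.17, 12.15, 12.11 and 12.08 on stiff arrays A to D. All soft arrays were below all stiff arrays, with soft A lowest by far in its group. CEP55 fell by 0.31 on the log2 scale (SE 0.070, adjusted p = 0.0189), a change of -19.5%. It passed without any 1 soft array and without stiff C or D. The adjusted p was 0.0515 without stiff A and 0.0571 without stiff B. The array has no other probe set for CEP55.

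**Figure D2:**
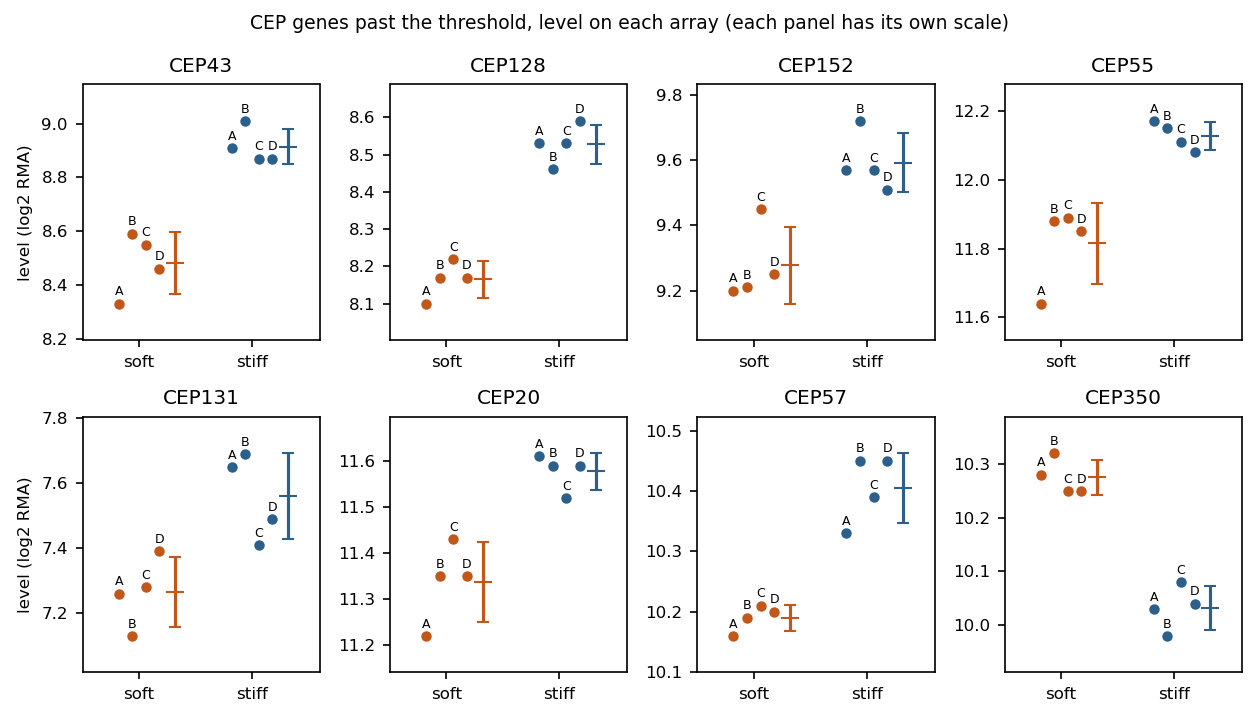
Log2 RMA level of the 8 CEP genes past the threshold on each array, soft left and stiff right, letters giving the array and bars the mean with the SD over 4 arrays; each panel has its own scale, none starting at 0. In every panel the soft and stiff points do not overlap, and only in that of CEP350 are the soft points the upper ones.

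Centriole assembly and duplication takes in 13 members, of which 2 were lower on soft, 1 was higher and 10 were not past the threshold. Their median difference was -0.18 on the log2 scale and 11 of the 13 were below 0. Beside these counts, 9.72% of genes above background were lower and 7.11% higher. CEP152, the scaffold that holds PLK4 at the parent centriole, had levels of 9.20, 9.21, 9.45 and 9.25 on soft A to D, against 9.57, 9.72, 9.57 and 9.51 on stiff A to D. The groups did not overlap, soft C being nearest to stiff. CEP152 fell by 0.315 on the log2 scale (SE 0.076, adjusted p = 0.0256), a change of -19.6%. The call held without soft C (adjusted p = 0.0116) and without stiff D (adjusted p = 0.041), and ended without any other array, where the adjusted p ran up to 0.0792 without stiff B.

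CEP57 binds CEP63 and CEP152 around the parent centriole and also pericentriolar material and microtubules. It stood at 10.16, 10.19, 10.21 and 10.20 on soft A to D, against 10.33, 10.45, 10.39 and 10.45 on stiff A to D. Soft arrays lay within a narrow band under all stiff arrays. The fall was the smallest of those called, with a difference of -0.215 (SE 0.058, adjusted p = 0.0405). It passed without stiff A (adjusted p = 0.0492) and missed the threshold without any other array, at up to 0.114 without stiff B.

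CEP350, which anchors microtubules at the centriole and with CEP43 and CEP19 forms a group at the distal end of the older centriole, was the member that rose. Its chosen probe set stood at 10.28, 10.32, 10.25 and 10.25 on soft A to D, against 10.03, 9.98, 10.08 and 10.04 on stiff A to D. All soft arrays were above all stiff arrays. The difference was 0.24 (SE 0.057, adjusted p = 0.0227), or 18.3% higher. The call ended without stiff A, B or D or soft B, with adjusted p up to 0.0729. A further CEP350 probe set with nearly the same mean level, 10.12 beside 10.15, differed by -0.04 (adjusted p = 0.753), so the direction rests on which of them is read.

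The other 10 members of this group were not past the threshold. CEP97, which caps centrioles and limits their length, had 8.74, 9.41, 9.20 and 9.13 on soft A to D, against 9.55, 9.46, 9.57 and 9.43 on stiff A to D. Soft A was far below the rest, the groups did not overlap, and the difference of -0.38 came with an SE of 0.118 (adjusted p = 0.0697). The other CEP97 probe sets gave smaller gaps, -0.115 at a mean level of 7.595 and -0.14 at a mean level of 6.7. Soft and stiff arrays overlapped in each, with adjusted p of 0.441 and 0.425. CEP76, which holds back repeated copying, differed by -0.305 (adjusted p = 0.0825). CEP295, needed for new centrioles to mature into centrosomes, differed by -0.31 (adjusted p = 0.124). For CEP76 and CEP295, too, every soft array was below every stiff array. On the chosen probe sets soft A was the lowest array of all 3 genes. Without it the differences were -0.26 for CEP97 (adjusted p = 0.097), -0.21 for CEP76 (adjusted p = 0.143) and -0.18 for CEP295 (adjusted p = 0.150).

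In the next 5 genes the soft and stiff arrays overlapped. CEP63, partner of CEP152, averaged 8.86 ± 0.092 on soft and 9.08 ± 0.131 on stiff (SD, n = 4 each, adjusted p = 0.120). CEP192, which brings in both PLK4 and the mitotic kinases, averaged 8.94 ± 0.071 on soft and 9.11 ± 0.107 on stiff (adjusted p = 0.163). CEP135, a cartwheel protein, differed by -0.16 (adjusted p = 0.171), CEP44 by -0.15 (adjusted p = 0.281) and CEP120, which helps centrioles elongate, by -0.15 (adjusted p = 0.244). CEP85, which binds STIL, had the same mean of 9.20 in both groups, with a 95% interval of the difference from -0.12 to 0.12, and CEP78 is described with its other probe sets.

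Appendages and cilium is the role of 10 members, of which 3 were lower on soft and 7 not past the threshold. Their median difference was -0.10 on the log2 scale. Of genes above background 9.72% were lower and 7.11% higher. CEP43, long known as FGFR1OP, is needed for ciliation and for anchoring microtubules at the centriole. It had 8.33, 8.59, 8.55 and 8.46 on soft A to D, against 8.91, 9.01, 8.87 and 8.87 on stiff A to D. The gap between the groups was wider than the spread in either. CEP43 fell by 0.43 on the log2 scale (SE 0.072, adjusted p = 0.0048), a change of -25.9%, and passed without any 1 array, at adjusted p of 0.00789 to 0.0191.

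CEP128 is a protein of the subdistal appendages, from which the older centriole anchors microtubules. It had 8.10, 8.17, 8.22 and 8.17 on soft A to D, against 8.53, 8.46, 8.53 and 8.59 on stiff A to D. Both groups were tight and did not overlap. CEP128 fell by 0.36 on the log2 scale (SE 0.059, adjusted p = 0.0044), a change of -22.2%, and passed without any 1 array, at adjusted p of 0.00724 to 0.0173.

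CEP20, also known as FOPNL, is a relative of CEP43 that is needed for ciliation. Its level was 11.22, 11.35, 11.43 and 11.35 on soft A to D, against 11.61, 11.59, 11.52 and 11.59 on stiff A to D. Soft C and stiff C came closest and the groups did not overlap. The difference was -0.24 (SE 0.064, adjusted p = 0.0387). The call held without soft C and ended without any other array, at adjusted p up to 0.0965 without stiff B.

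Among the other appendage and cilium genes, CEP41, which takes part in tubulin glutamylation in cilia, differed by -0.17 (adjusted p = 0.141) with groups that did not overlap. CEP126 at 0.14 (adjusted p = 0.161) and CEP19 at 0.12 (adjusted p = 0.258) had every soft array above every stiff array without passing. CEP19 is recruited to the centriole by CEP43 and CEP350, and these 3 partners thus had differences of 0.12, -0.43 and 0.24. The distal appendage proteins CEP164, which docks the centriole to membrane, and CEP89 differed by 0.08 (adjusted p = 0.614) and 0.01 (adjusted p = 0.951). CEP162, a transition zone protein, differed by -0.09 (adjusted p = 0.491) and CEP15 by -0.10 (adjusted p = 0.523). The 95% interval reached from -0.09 to 0.24 for CEP164 and from -0.13 to 0.15 for CEP89. A further CEP164 probe set, with a mean of 7.52, differed by -0.29 (adjusted p = 0.0579), every soft array being below every stiff array. The remaining CEP164 probe set differed by 0.005 (adjusted p = 0.978).

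Pericentriolar material, satellites and microtubule organisation is the role of 9 members. Of these 1 was lower and 8 were not past the threshold, near the 9.72% of genes above background that were lower. The median difference of the 9 members was -0.08 on the log2 scale. CEP131, a core protein of the centriolar satellites that travel along microtubules, had 7.26, 7.13, 7.28 and 7.39 on soft A to D, against 7.65, 7.69, 7.41 and 7.49 on stiff A to D. The groups did not overlap, but soft D, at 7.39, came close to stiff C, at 7.41. CEP131 fell by 0.295 on the log2 scale (SE 0.082, adjusted p = 0.046). The call held without stiff C or soft D and ended without any other array, at adjusted p up to 0.131 without stiff B.

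CEP290, a protein of satellites and of the ciliary gate, differed by -0.24 (adjusted p = 0.100) with groups that did not overlap. Another CEP290 probe set, with a mean of 8.21, differed by 0.09 (adjusted p = 0.692) with groups that overlapped. The remaining CEP290 probe set, below background, differed by 0.015 (adjusted p = 0.959). CEP72, which brings CEP290 to satellites, differed by -0.15 (adjusted p = 0.225). CEP112, a coiled-coil protein, had levels nearer to background, with 6.59, 6.59, 6.24 and 6.50 on soft A to D, against 6.55, 6.44, 6.78 and 6.59 on stiff A to D. Its groups overlapped and the difference was -0.11 (adjusted p = 0.558). CEP95, CEP85L, CEP70 and CEP170B had differences of -0.08 to 0.01. CEP68, which sits in the pericentriolar material and the linker, differed by 0.16 (adjusted p = 0.221). CEP250, a protein of the linker between centrosomes, differed by -0.07 (adjusted p = 0.559).

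The 69 probe sets that were not chosen give further readings of the same arrays, not further samples. Of them 8 (11.6%), in 5 genes, were lower on soft and 2 (2.90%) were higher, whereas of all probe sets not chosen for their gene 4.64% were lower and 5.34% higher. A mean at or below background was found for 24 of the 69. Among the 7 members that fell, 5 have further probe sets, 17 in all, of which 6 were lower on soft and 14 had a difference below 0. CEP152 had 2 further probe sets past the threshold, at -0.59 (adjusted p = 0.0217) and -0.37 (adjusted p = 0.0144). CEP57 also had 2, at -0.32 (adjusted p = 0.0309) and -0.29 (adjusted p = 0.0397).

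CEP43 and CEP128 each had 1 further probe set that was lower, at -0.40 (adjusted p = 0.0158) and -0.46 (adjusted p = 0.0182). Others of these genes were not lower: a CEP43 probe set with a mean of 8.32 differed by 0.02 (adjusted p = 0.928), and 1 of CEP128 by 0.06 (adjusted p = 0.814). With the values of all probe sets of a gene averaged, 7 members were again lower, but not the same ones. CEP128 at -0.20 (adjusted p = 0.0691) and CEP20 at -0.19 (adjusted p = 0.0704) were then not past the threshold, CEP43 differed by -0.25 (adjusted p = 0.0205), and CEP78 at -0.26 (adjusted p = 0.0262) and CEP76 at -0.26 (adjusted p = 0.0477) passed. The name of the chosen CEP43 probe set ends in _s_at, which marks probes shared between transcripts. In all, 14 of the 34 chosen names end in _s_at, _x_at, _a_at or _f_at, and all such names are treated as marked as shared here. These endings differ in meaning and do not all stand for sharing between transcripts. The chosen names of CEP97, CEP44 and CEP170B end in _x_at and that of CEP76 in _f_at. The brightest CEP43 probe set without any such ending differed by -0.19 (adjusted p = 0.154 when marked probe sets are left out of the fit).

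CEP78, which acts in centriole copying and at the older centriole, shows how much the choice matters. Its chosen probe set had 9.53, 9.50, 9.59 and 9.61 on soft A to D, against 9.51, 9.62, 9.60 and 9.66 on stiff A to D, a difference of -0.04 (adjusted p = 0.762). Its second probe set, whose mean of 9.53 was just under the chosen 9.58, had 9.25, 9.22, 9.51 and 9.38 on soft A to D, against 9.68, 9.86, 9.68 and 9.68 on stiff A to D. The first reading overlapped between the groups and the second did not. The second differed by -0.385 (adjusted p = 0.013), and the remaining CEP78 probe set by -0.36 (adjusted p = 0.0295).

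CEP350 and CEP68 were the genes with a further probe set that was higher on soft. For CEP350 it read 6.83, 6.66, 7.05 and 6.99 on soft A to D, against 6.40, 6.24, 6.33 and 6.37 on stiff A to D, close to the background level, with a difference of 0.55 (adjusted p = 0.00386). Another CEP350 probe set differed by -0.31 (adjusted p = 0.181), so its 4 probe sets pointed both ways. For CEP68 the further probe set differed by 0.38 (adjusted p = 0.0167), and all 5 CEP68 readings were above 0.

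**Figure D3:**
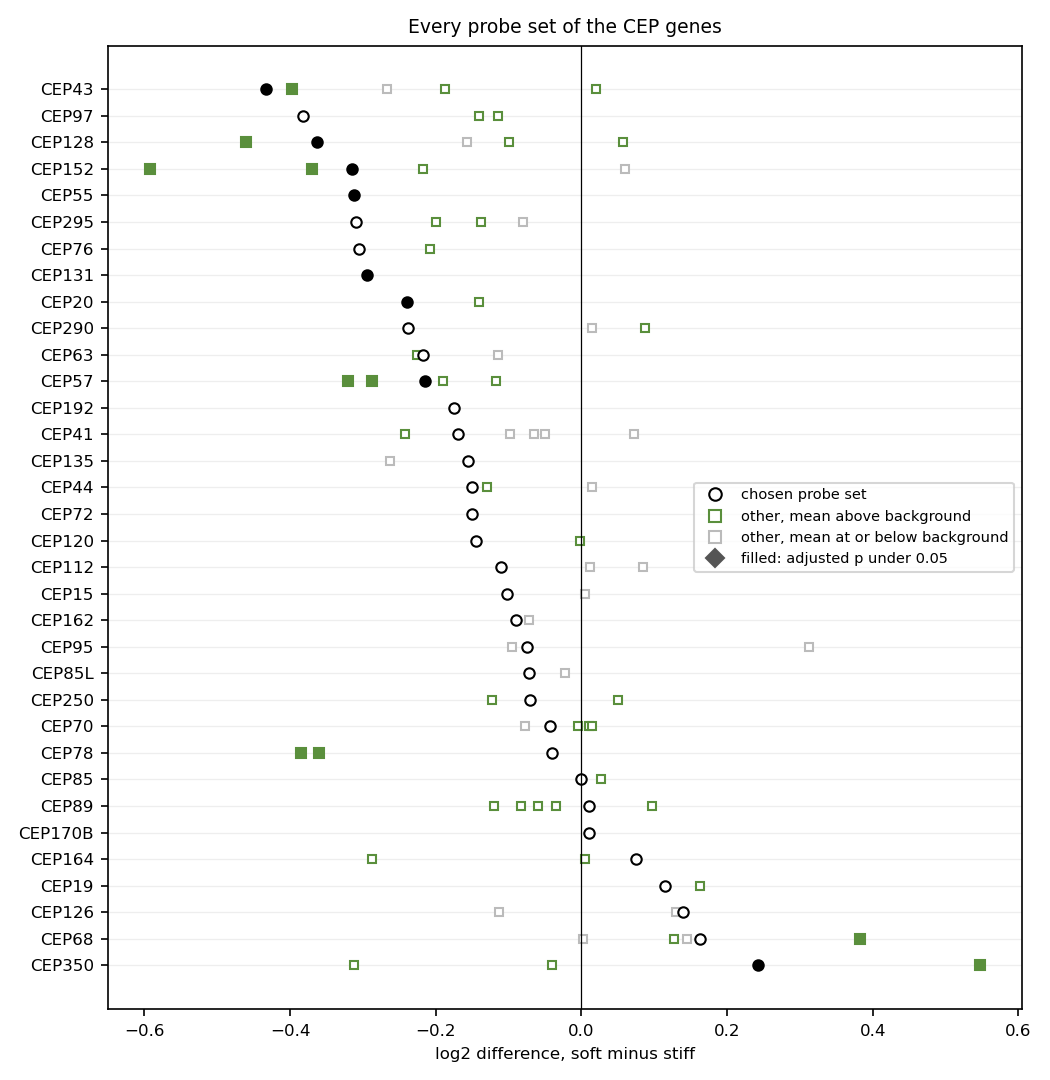
Log2 difference, soft minus stiff, of every probe set of the CEP genes, 1 row per gene; circles are the chosen probe sets, squares the others, grey squares those with a mean at or below background, and filled marks passed adjusted p under 0.05. CEP152, CEP57 and CEP78 have several filled squares left of 0, and the marks of CEP350 lie on both sides of 0.

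The lowest levels of the members came mostly on soft A. Each member's level was set against its own mean over the 8 arrays, and the median of these deviations over the 34 members was -0.15 on soft A, -0.07 on soft B, 0.01 on soft C and -0.03 on soft D, against 0.05, 0.07, 0.07 and 0.08 on stiff A to D. Soft A alone was the lowest of its group for 22 of the 34 members. The median member difference was -0.11 without soft A and between -0.13 and -0.16 without any other array. The 29 genes of the proliferation list also stood lower on soft: their mean deviation was -0.26 to -0.02 on soft arrays, against 0.05 to 0.20 on stiff arrays. Its part in the CEP differences was not tested.

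The count of members lower on soft was smaller with fewer arrays. It was 3 without soft A, 4 without soft B, 6 without soft C and 4 without soft D, and 3, 2, 4 and 4 without stiff A, B, C and D. All genes called in either direction came to 10.3% with all arrays and to 5.52% to 10.3% without 1 array. That share takes both directions together, while the member counts here are of lower alone. With only stiff A and B as stiff arrays 3 members were lower, and with only C and D just CEP128 was. Within stiff, A and B minus C and D ranged from -0.26 for CEP15 to 0.22 for CEP63 and CEP131, and CEP131 differed between soft and stiff by -0.41 against A and B and by -0.19 against C and D. CEP55 differed by -0.35 against A and B and by -0.28 against C and D, and CEP128 by -0.33 and -0.40.

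**Figure D4:**
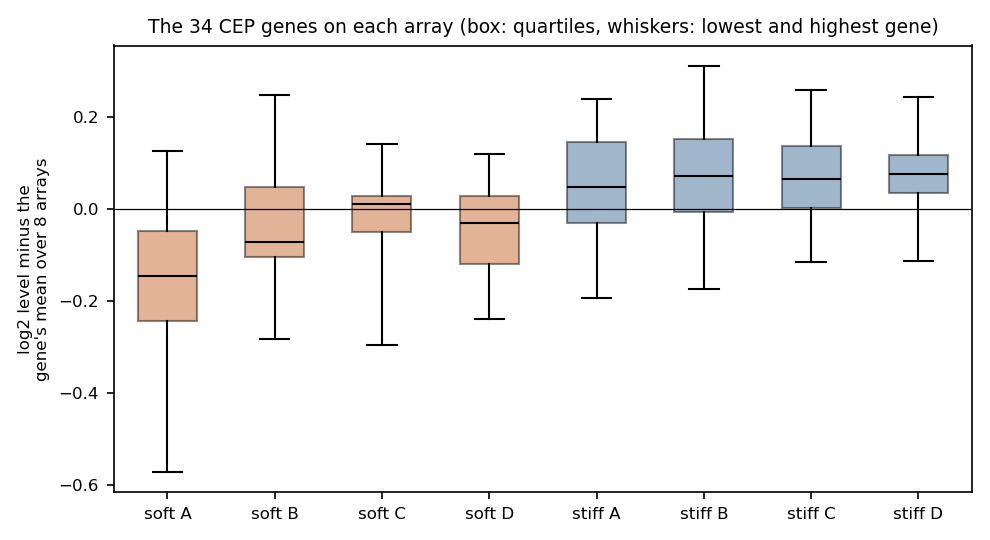
Deviation of the 34 CEP genes from their own mean over 8 arrays (log2), 1 box per array, soft arrays left and stiff arrays right; boxes span the quartiles, lines are medians and whiskers reach the lowest and highest gene. Soft A has the lowest median, -0.15, and the 4 stiff medians lie between 0.05 and 0.08.

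Genes of the centrosome without a CEP symbol were read from 7 lists, 151 measured genes in all, drawn up with earlier results of these data known. Of them 24 (15.9%) were lower on soft and 5 (3.31%) higher, with a median difference of -0.12 on the log2 scale. Beside these and the list counts below stand the shares of all genes, 5.93% lower and 4.39% higher. For genes above background the shares were 9.72% and 7.11%. Among 20 centriole duplication genes 4 were lower and 16 not past the threshold, with a median of -0.19. STIL averaged 10.68 ± 0.221 on soft and 11.13 ± 0.013 on stiff (SD, n = 4 each), a difference of -0.455 (adjusted p = 0.0152). SASS6 differed by -0.35 (adjusted p = 0.0104), while PLK4, the kinase that CEP152 holds, differed by -0.245 (adjusted p = 0.124). All 20 were below 0.

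In the pericentriolar material and gamma-tubulin complex 4 of 24 genes were lower, with a median of -0.14. HAUS8, of the augmin complex that branches spindle microtubules, fell by 0.49 on the log2 scale (adjusted p = 0.00442) and NEDD1, which recruits gamma-tubulin, differed by -0.365 (adjusted p = 0.00715). The scaffold PCNT averaged 9.65 ± 0.064 on soft and 9.66 ± 0.025 on stiff (adjusted p = 0.916). Of 14 satellite genes 3 were lower, with a median of -0.13, among them TBC1D31 at -0.41 (adjusted p = 0.0238) and C2CD3, which builds distal appendages, at -0.34 (adjusted p = 0.0204).

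Centrosome maturation and spindle pole genes included 6 of 22 that were lower, with a median of -0.17. HMMR, a spindle protein, fell by 0.68 on the log2 scale (adjusted p = 0.00697), the mitotic kinase PLK1 by 0.44 (adjusted p = 0.0124) and AURKA, the kinase that CEP192 activates, by 0.42 (adjusted p = 0.00853). Of 23 cytokinesis and abscission genes, the process in which CEP55 acts, 5 were lower and 1 higher, with a median of -0.11. CDCA8 and BIRC5, both of the chromosomal passenger complex, differed by -0.395 (adjusted p = 0.0191) and -0.38 (adjusted p = 0.0309), and the ESCRT subunit CHMP2A by 0.39 (adjusted p = 0.0039). Of 11 linker and disjunction genes 1 (9.09%) was lower, near the 9.72% of genes above background. It was the kinase NEK2, at -0.40 (adjusted p = 0.0188), and the list median was -0.06.

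Appendage and cilium assembly genes without a CEP symbol had 1 of 37 lower (2.70%) and 4 higher (10.8%), with a median of -0.07. Of genes above background 9.72% were lower and 7.11% higher. BBS1, of the complex that carries membrane proteins into cilia, rose by 0.42 on the log2 scale (adjusted p = 0.00307), and WDR19, of the transport particle that returns cargo from the ciliary tip, by 0.325 (adjusted p = 0.0175). RPGRIP1L, at the ciliary gate, was lower by its difference of -0.59 (adjusted p = 0.0213), with group means of 5.71 on soft and 6.30 on stiff that are at or under the background level. The CEP genes of the same role had 3 of 10 lower, and the difference between these lists was not tested.

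Beside them, 11 of 29 proliferation genes were lower, with a median of -0.24, including the cyclin CCNE2 at -0.505 (adjusted p = 0.0185) and the spindle checkpoint kinase TTK at -0.46 (adjusted p = 0.00599). Of 19 DREAM and E2F regulators, known to act at E2F and cell cycle homology elements, 4 were lower, with a median of -0.20. Among them E2F8 fell by 0.635 on the log2 scale (adjusted p = 0.0093) and LIN52 differed by -0.385 (adjusted p = 0.0106). Genes of multiciliated cells had a median difference of 0.03.

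**Figure D5:**
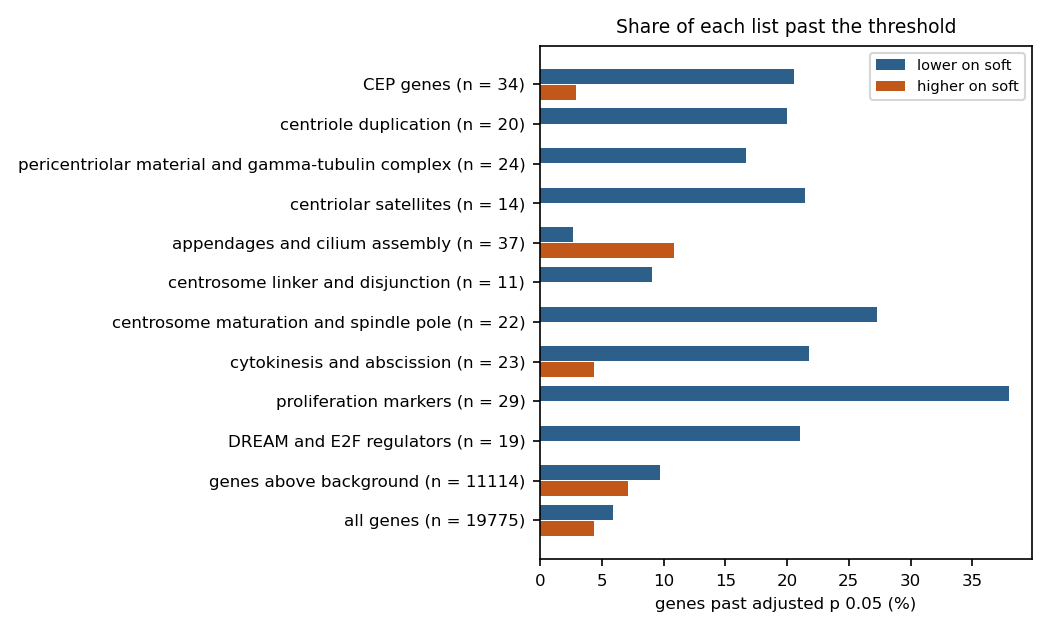
Percent of the genes of each list past adjusted p under 0.05, lower on soft (upper bar of each pair) and higher on soft (lower bar), with the number of measured genes beside each name. The CEP bars reach 20.6% and 2.94%, those of the proliferation list 37.9% for lower alone, and those of all genes 5.93% and 4.39%.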

How the data were processed

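The authors deposited 1 table of log2 expression values, made with RMA per the submitters' processing notes, 1 value per probe set and array, rounded to 2 decimals. RMA equalises arrays, so a shift common to all genes is removed. Scanner files were not used here. The table held 54675 probe sets; 62 manufacturer controls were left out.

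Soft and stiff were compared over the remaining 54613 probe sets with limma 3.58.1 in R 4.3.3 (lmFit and eBayes, two-sided, Benjamini-Hochberg adjustment over all of them, threshold 0.05, no filter), and the member rows were read from that fit. Platform annotation gave 41091 probe sets 1 symbol, 1801 several and 11721 none; those with several or none were not named. Every gene was read by its probe set of highest mean. Background is the 95th percentile of the means of 19 genes taken as silent. The procedure was tested on simulated data. Precision is limited by 4 arrays per group.

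The members, roles and gene lists were chosen with earlier results of these data known. Named genes are all members, up to 2 genes per list and direction with the largest called differences, and 6 partner genes; KRT18, ESR1, PGR, FOXA1, CDH1 and FOXJ1 were named outside this rule, after their values were seen. Alternatives were other variance models, scalings, filters, probe set rules, a replicate block and leaving out arrays.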

Additional observations from a re-analysis of the deposited data

Results flagged for a closer look

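In 6 of 68 groups of 4 arrays, counting 2 groups for each CEP gene, 1 array stood apart from the other 3 by Dixon's criterion at the 95% level, where chance gives about 1 in 20, or 3.4. CEP55 had 11.64 on soft A, with 11.85 to 11.89 on the other soft arrays. CEP15 had 11.28 on soft A, with 11.42 to 11.44 on the others. CEP192 had 9.04 on soft C, with 8.89 to 8.91 on the other soft arrays, and 9.27 on stiff B, with 9.04 to 9.07 on the other stiff arrays. CEP44 had 9.87 on stiff D, with 9.81 to 9.82 on the others, and CEP170B had 8.27 on stiff B, with 8.44 to 8.46 on the others. Of these genes CEP55 alone was past the threshold, and its difference without soft A was -0.25 (adjusted p = 0.0335).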

How the results depend on the processing

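The count of members lower on soft, 7 as reported, was 3 with a replicate block, 11 with probe sets above background alone, 3 of 28 members without probe sets marked as shared, 3 against stiff A and B alone, 1 against stiff C and D alone and 2 to 6 with 1 array left out. The genes called in either direction, 10.3% of all genes as reported, came to 7.34% with the block, 28.6% of genes tested above background, 8.52% without marked probe sets, 5.58% against stiff A and B and 4.22% against stiff C and D. The count higher, 1 as reported, was 0 with the block, without marked probe sets, with probe sets averaged and against either stiff pair. It was 2 above background and 0 to 1 with 1 array left out. The shares of all genes take both directions together, so the lower and higher member counts both stand against them. Under the block 3 of 34 members were lower and 0 higher, beside 7.34% of all genes. Shares of all genes by direction were not taken under the alternatives. With the block, 14 genes of the other centrosome lists were lower, against 24 as reported; with a trended and robust variance, 10 were higher, against 5. CEP350 turned to -0.04 without marked probe sets, since another probe set is then read. The member median stayed below 0 under every alternative tried, from -0.17 to -0.08. Over 21 alternatives CEP128 passed in 20, CEP43 in 19, CEP55 in 17, and CEP152 and CEP350 in 12. CEP131 passed in 10, CEP20 in 9, and CEP57 in 9 of 20. Among the alternatives was naming members by updated symbols, which read the same fit and probe sets as the reported result. That alternative passed every called gene by construction. Deviations of same-lettered soft and stiff arrays correlated at -0.19 to 0.11, and of the soft arrays A alone correlated best with its own letter, so the letters were not taken as pairs. Chosen probe sets have the highest mean of their gene by rule, and all were above background. Of the other 69, 24 were not, and little can be read from those.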
